A study of Mus musculus with 11 samples.

Results

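The vesicular glutamate transporters of the mouse are encoded by 3 genes, Slc17a7, Slc17a6 and Slc17a8, whose proteins are called VGLUT1, VGLUT2 and VGLUT3. They were picked by name out of the 48709 genes that the count tables list, through the Ensembl identifiers that map to these symbols. The genes were chosen from results in which the samples given a microRNA mimic had been compared with the control samples, so that comparison is described below for them without a test. All 3 genes passed the filter on low counts, which left 17365 genes for testing.

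The cells were primary hippocampal neurons of CD1 mouse embryos at embryonic day 17, and by the study's methods such cultures hold glia besides neurons and pool the hippocampi of many embryos. On day 10 in vitro all cultures received lipid nanoparticles, particles of lipid that carry RNA into cells, together with apolipoprotein E4 according to the methods. In 5 samples the particles carried a mimic of miR-181a-5p (the mimic group), and in 6 samples a negative control oligonucleotide (the control group). RNA was taken 48 hours later, on day 12 in vitro. Nothing in the labels says whether the samples of a group came from separate cultures, so p-values measure the spread between these samples, which may be technical.

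VGLUT proteins load glutamate, the main excitatory transmitter of the brain, into synaptic vesicles, using the electrical and proton gradient that the vesicular proton pump builds across the vesicle membrane. In the adult brain Slc17a7 prevails in neurons of the cortex and hippocampus and Slc17a6 in those of the thalamus and brainstem, while young cortical and hippocampal neurons express both. Slc17a8 marks scattered cells that also use another transmitter, such as some serotonergic, cholinergic and GABAergic neurons. In RNA of a mixed culture, fewer cells of a type and less RNA per cell cannot be told apart.

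The oligonucleotides are shown because the groups differ in them and because the part of a microRNA that reads its targets, the seed, can be looked for in the 3 transcripts. Capitals mark the seed, bases 2 to 8 from the 5′ end, of the mimic and of the negative control for mimics that the study lists. The control samples were taken to have received this listed control, although the methods for these cultures name only scrambled RNA.
mimic of miR-181a-5p: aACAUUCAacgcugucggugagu
negative control oligonucleotide: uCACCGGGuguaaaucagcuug
The mimic equalled the mature miR-181a-5p of RefSeq (GRCm38.p6), which is encoded on the forward strand at chr1:137966468-137966490 (Mir181a-1) and chr2:38852741-38852763 (Mir181a-2). The libraries were made from polyadenylated RNA, so the mimic itself was not measured.

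On build GRCm38 Slc17a7 (ENSMUSG00000070570) lies on the forward strand at chr7:45163949-45176142 and Slc17a6 (ENSMUSG00000030500) on the same strand at chr7:51622006-51671119. Slc17a8 (ENSMUSG00000019935) lies on the reverse strand at chr10:89574020-89621253. The longest coding transcript of each gene had 12 exons. The proteins were similar in size, with 560 codons in Slc17a7, 582 in Slc17a6 and 601 in Slc17a8, while the 3′ untranslated region grew from 1098 bases in Slc17a7 to 1759 in Slc17a6 and 2296 in Slc17a8.

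The coding sequences were alike, but the genes shared no identical stretch as long as a 50-base read. Whether reads with mismatches could be exchanged between the genes was not tested. Aligned base by base, 70.3% of positions were identical between Slc17a7 and Slc17a6, 67.6% between Slc17a7 and Slc17a8, and 70.7% between Slc17a6 and Slc17a8. The longest runs shared by Slc17a6 with each of its relatives are shown because their length can be set against that of a read.
shared by Slc17a7 and Slc17a6: aacctgggcgtggccatcgtg
shared by Slc17a6 and Slc17a8: tcatgagcggcctcggcttctgcat
The first run has 21 bases and lies in the coding sequence of Slc17a7 at chr7:45168896-45168916. The second has 25 bases and lies in that of Slc17a6 at chr7:51625418-51625442, each on the forward strand. Of all 50-base words in their transcripts, 0 of 5678 in Slc17a7 and 0 of 5483 in Slc17a6 occurred in another gene. In Slc17a8, 60 of 4664 words also occurred in other genes, none of them Slc17a7 or Slc17a6, and these lay in the 3′ untranslated region between bases 563 and 1107 after the stop codon. No exon base of the 3 genes overlapped an exon of another annotated gene.

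Seed matches were searched on the transcript strand of the longest coding transcript of each gene. The letters were TGAATGT for the 7-base match to the mimic and GAATGT for the 6-base match that it contains, and CCCGGTG for the 7-base match to the control oligonucleotide. Of 21013 genes with an annotated 3′ untranslated region, 16.4% held TGAATGT there, 32.7% held GAATGT and 2.31% held CCCGGTG. None of these letters occurred in the 3′ untranslated region of Slc17a7, Slc17a6 or Slc17a8. Elsewhere in the transcripts, Slc17a8 had 1 match to each oligonucleotide, both in its coding sequence, and the matches are shown in capitals with the bases around them.
Slc17a8, 6-base match to the mimic: gaggagtggcaGAATGTgttcctcatag
Slc17a8, 7-base match to the control oligonucleotide: tgacacaaattCCCGGTGgcttcatttca
The first stretch is in exon 12 (chr10:89576624-89576651, reverse strand) and the second in exon 3 (chr10:89600223-89600251, reverse strand). A match is a description of letters and not a site of action, and the absence of these letters says nothing about the microRNA.

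**Figure D1:**
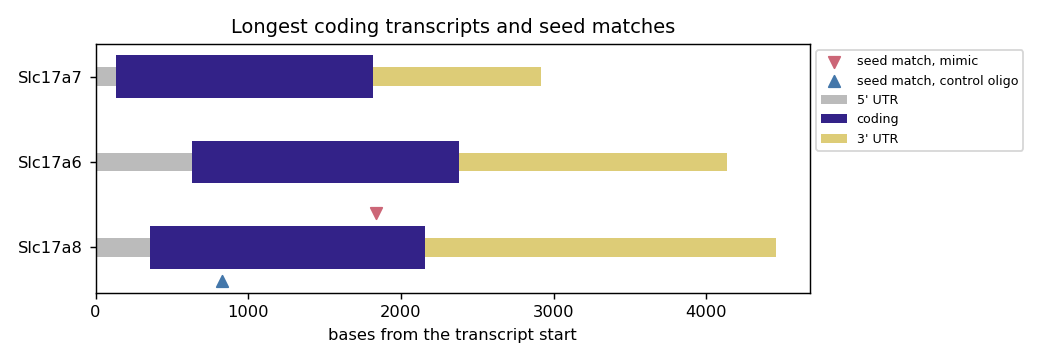
The longest coding transcript of each vesicular glutamate transporter gene, drawn to scale in bases from the transcript start, with the 5′ untranslated region (grey), coding sequence (dark) and 3′ untranslated region (yellow). Triangles mark the 2 seed matches, both in the coding sequence of Slc17a8: the 6-base match to the mimic above the bar and the 7-base match to the control oligonucleotide below it.

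The depth behind these values was ample for 2 of the genes and thin for the third. Total counts per sample lay between 17287168 and 48091231, and mitochondrial genes took 3.03 to 3.48% of them. Slc17a7 had 15948 to 46137 counts per sample, Slc17a6 had 713 to 1936 and Slc17a8 had 55 to 194. For Slc17a8 counting alone would give a coefficient of variation of 10.5% in control and 11.5% in mimic samples, beside observed values of 11.7 and 10.9%.

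To set genes beside each other, CPM (read counts scaled so that libraries of different size can be compared) were divided by the length of all exons of the gene in kilobases. In the control samples Slc17a7 had 172.0 ± 5.82 CPM per kb (SD, n = 6), which was above 99.2% of the 17312 tested genes with a known length. Slc17a6 had 7.71 ± 0.17 (67.0% of genes lay below) and Slc17a8 0.819 ± 0.0958 (27.8% lay below). Per length, Slc17a7 was therefore 22.3-fold above Slc17a6, with 21.0- to 23.9-fold over the 6 samples, and Slc17a6 was 9.53-fold above Slc17a8, with 8.58- to 11.3-fold. The order Slc17a7, Slc17a6, Slc17a8 held in each of the 11 samples.

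In the order of levels Slc17a6 stood between Slc17a5 below it and Slc32a1, the transporter that loads GABA and glycine, above it. In control Slc32a1 had 10.1 to 12.7 CPM per kb and lay above the range of Slc17a6, 7.54 to 7.93, in the same samples. In mimic the 2 ranges came closer, with 10.6 to 11.6 CPM per kb for Slc32a1 and 8.18 to 10.2 for Slc17a6, and still did not overlap. Slc17a5, the lysosomal sialic acid exporter of the same family, lay just under Slc17a6 with 6.46 to 7.08 CPM per kb in control. Slc17a8 could not be set apart from Slc18a2, the vesicular monoamine transporter of neurons, which had 0.584 to 0.789 CPM per kb in control against 0.680 to 0.922 for Slc17a8.

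The rest of the SLC17 family, and Slc18a3, were at or near the limit of the depth. Slc17a4 had 0 counts in all 11 samples, which allows up to 3 counts or 0.0624 CPM in the deepest sample and 0.174 CPM in the shallowest. Slc17a1, Slc17a2 and Slc17a3, relatives known mainly from kidney and liver, had at most 2 counts in any sample. Slc17a9, the vesicular nucleotide transporter that loads ATP, had 0 to 7 counts. Slc18a3, the vesicular acetylcholine transporter, had 0 to 4. These limits cover counting error only, because without molecular identifiers several reads can come from 1 molecule.

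**Figure D2:**
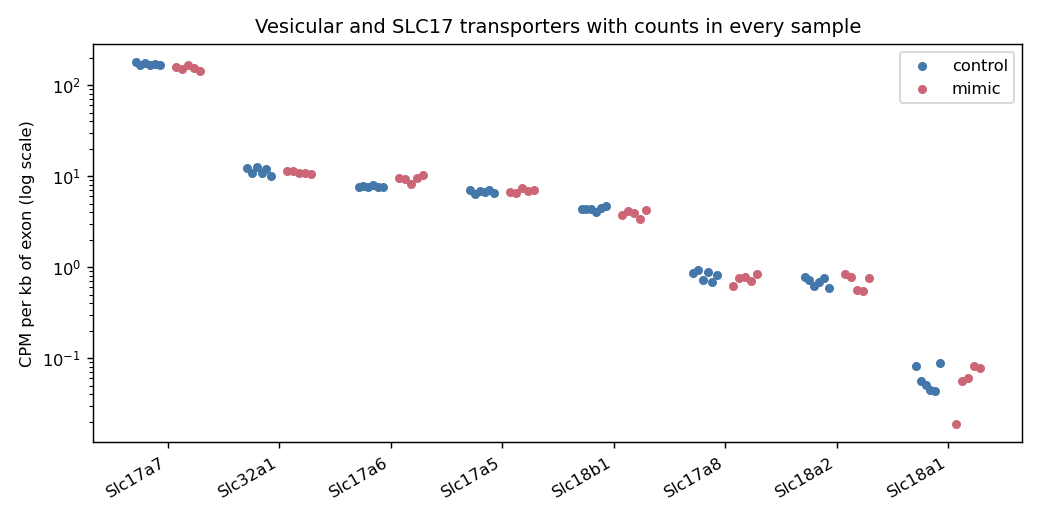
Level of each vesicular or SLC17 transporter with at least 1 count in every sample, in CPM per kilobase of exon on a log scale, with 1 point per sample (6 control in blue, 5 mimic in red). Slc17a7 stands at 143 to 180 CPM per kb, Slc17a6 lies between Slc32a1 and Slc17a5, and Slc17a8 shares its range with Slc18a2.

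The design asked which RNA levels the mimic samples and the control samples do not share. Slc17a7 and Slc17a6 had differences of opposite sign. For Slc17a7, the main transporter of these cultures, the difference of mimic from control was -9.15%, and for Slc17a6 it was 21.3%. For Slc17a8 it was -10.9%, with groups that overlapped over most of their range.

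For Slc17a7, the lowest, median and highest control samples had 893, 920 and 970 CPM. The mimic samples had 860, 824, 911, 845 and 772 CPM (replicates 1 to 5). Mimic replicate 3 lay inside the control range and the other 4 mimic samples lay below it, so the groups overlapped. The means were 927 ± 31.4 (SD, n = 6) and 843 ± 50.6 CPM (SD, n = 5), and the log2 fold change of mimic over control was -0.14 ± 0.03 (SE).

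For Slc17a6, the lowest, median and highest control samples had 40.7, 41.4 and 42.8 CPM. The mimic samples had 51.2, 50.1, 44.1, 51.4 and 55.2 CPM (replicates 1 to 5). Every mimic sample lay above every control sample, as was so for 1.16% of the 17365 genes tested, while 1.73% had every mimic sample below every control sample. Nothing is read from this, since the gene was picked with the comparison in view. Mimic replicate 3 was again the nearest to the controls. The means were 41.6 ± 0.92 CPM (SD, n = 6) and 50.4 ± 4.00 CPM (SD, n = 5), and the log2 fold change was 0.28 ± 0.04 (SE). The coefficient of variation was 2.21% among the control and 7.94% among the mimic samples, where counting alone would give 3.14 and 3.04%.

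For Slc17a8, the lowest, median and highest control samples had 3.21, 3.97 and 4.35 CPM. The mimic samples had 2.94, 3.61, 3.68, 3.31 and 3.93 CPM (replicates 1 to 5). Only mimic replicate 1 lay below the control range, and mimic replicate 5 was above the control mean. The means were 3.86 ± 0.452 (SD, n = 6) and 3.49 ± 0.381 CPM (SD, n = 5), and the log2 fold change was -0.17 ± 0.10 (SE).

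**Figure D3:**
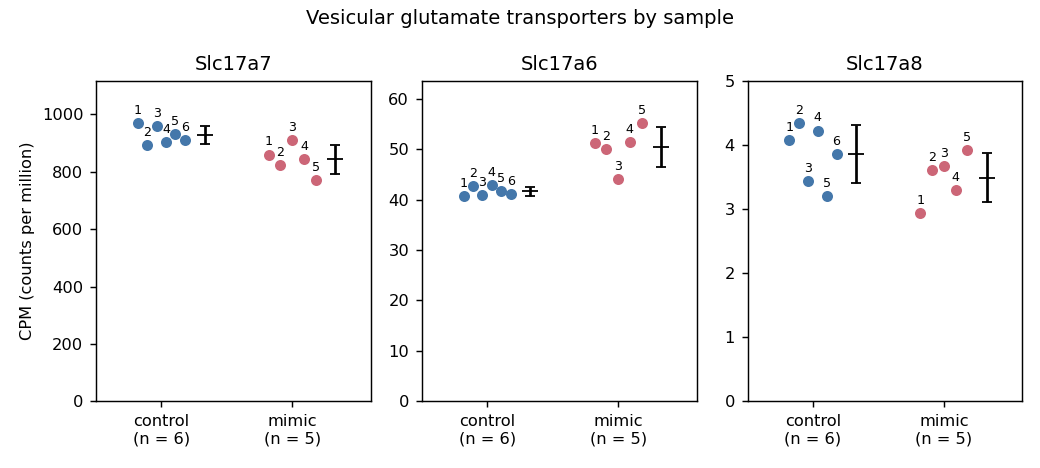
CPM of Slc17a7, Slc17a6 and Slc17a8 in each control (blue) and mimic (red) sample, numbered by replicate, with the mean and SD of each group in black and axes that start at 0. For Slc17a6 the 5 mimic samples (44.1 to 55.2 CPM) lie above the 6 control samples (40.7 to 42.8 CPM), while the groups overlap for the other 2 genes.

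Because the more abundant gene was lower and the less abundant one higher, the make-up of the VGLUT transcripts moved. Per length, Slc17a7 formed 95.3 ± 0.262% (SD, n = 6) of the 3 transcripts in control and 93.9 ± 0.758% (SD, n = 5) in mimic. Slc17a6 formed 4.28 ± 0.217% and 5.64 ± 0.72%, and Slc17a8 0.455 ± 0.0609% and 0.447 ± 0.0638%. For every 100 units of Slc17a7 there were 4.19 to 4.77 units of Slc17a6 in the control samples. In the mimic samples there were 5.95, 6.07, 4.84, 6.07 and 7.14 (replicates 1 to 5), all above the control range. The sum of the 3 transcripts followed Slc17a7, with 174 to 188 CPM per kb in control and 154 to 178 in mimic.

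The mimic samples took opposite places for Slc17a7 and Slc17a6 at the ends of their range. Mimic replicate 5 had the least Slc17a7 (143 CPM per kb) and the most Slc17a6 (10.2). Mimic replicate 3 had the most Slc17a7 of the mimic group (169) and the least Slc17a6 (8.18). Among the controls, replicate 1 had the most Slc17a7 (180) and the least Slc17a6 (7.54). These are places of single samples on a shared scale, and with 5 and 6 samples a group no correlation was computed.

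**Figure D4:**
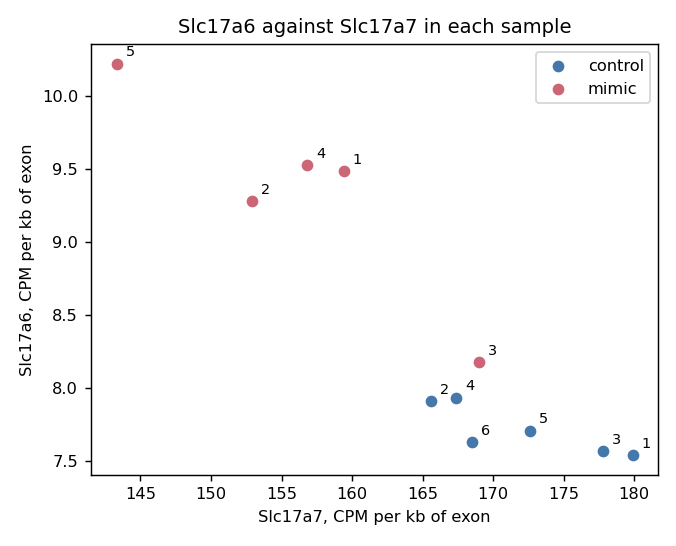
Slc17a6 against Slc17a7 in CPM per kilobase of exon, 1 point per sample labelled with its replicate number (control in blue, mimic in red); neither axis starts at 0. Mimic replicate 5 is at the upper left (143 and 10.2), mimic replicate 3 (169 and 8.18) is beside the controls, and the 6 controls lie between 166 and 180 for Slc17a7 and between 7.54 and 7.93 for Slc17a6.

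The genes around the transporters were taken from 6 lists: other SLC17 members, vesicular transporters of other transmitters, the vesicular proton pump, glutamate supply, endophilins with vesicular ion exchange, and vesicle membrane proteins. Of their 66 genes 57 could be tested. In mimic 3 of these were called lower and 0 higher by the quasi-likelihood test of edgeR at an adjusted p under 0.05, where 307 (1.77%) and 188 (1.08%) of all 17365 genes were. At an unadjusted p under 0.05 there were 9 lower and 4 higher, beside 8.41% and 7.30% of all genes. DESeq2 also called 3 and 0, beside 2.19% and 1.36% of the genes to which it gave an adjusted p. These shares over all genes are the background for the counts of every list below. The median log2 fold change of the 57 genes was -0.001, beside -0.0001 over all genes tested.

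The transporters of other transmitters and of the same family had no called gene. Slc32a1 had a log2 fold change of -0.05 ± 0.05 (SE, adjusted p = 0.71, edgeR), with 28.2 to 35.5 CPM in control and 29.5 to 32.3 CPM in mimic. Slc17a5 had 0.02 ± 0.04 (adjusted p = 0.872, edgeR). Of the 4 tested transporters of other transmitters 1 was lower at an unadjusted p under 0.05 and DESeq2 called none, while Slc17a5 was the only tested gene of the other SLC17 members.

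The proton pump supplies the gradient that VGLUT proteins use, and 23 of its 25 subunit and accessory genes were tested. None was called by edgeR or by DESeq2, and 1 was lower and 1 higher at an unadjusted p under 0.05. Their median log2 fold change was 0.010. With no count filter edgeR called 1 pump gene, Atp6v0d2, lower. With the filter it had -0.79 ± 0.26 (SE, adjusted p = 0.104, edgeR), on 2 to 37 counts per sample. Atp6v0e2, a membrane-sector subunit and the pump gene with the highest level per length in control (204 CPM per kb), had a log2 fold change of 0.02 ± 0.02 (SE, adjusted p = 0.827, edgeR).

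The endophilins bind VGLUT1 and take part in the retrieval of vesicle membrane. Sh3gl2, the most abundant per length, had a log2 fold change of -0.03 ± 0.03 (SE, adjusted p = 0.716, edgeR), Sh3gl1 0.07 ± 0.03 (adjusted p = 0.292) and Sh3gl3 0.05 ± 0.03 (adjusted p = 0.582). Clcn3, a chloride and proton exchanger of intracellular vesicles, had -0.04 ± 0.02 (adjusted p = 0.541, edgeR). In this list of 6 genes none was called by edgeR or DESeq2, and 1 was higher at an unadjusted p under 0.05.

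In the supply of glutamate, 2 of 11 tested genes fell and none rose by edgeR, beside 4 and 2 at an unadjusted p under 0.05, and DESeq2 called the same numbers. Slc38a2, a carrier that takes glutamine into cells, averaged 74.4 ± 4.40 CPM (SD) over the 6 control samples and 67.4 ± 3.15 CPM (SD) over the 5 mimic samples. Its log2 fold change was -0.15 ± 0.04 (SE, adjusted p = 0.0365, edgeR). Got1, the cytosolic aspartate aminotransferase, averaged 141 ± 7.13 CPM over the control and 127 ± 8.79 CPM over the mimic samples (SD), with -0.16 ± 0.04 (SE, adjusted p = 0.041, edgeR). Both calls were thin. Slc38a2 was lost without any of control replicates 1, 4, 5 and 6 or mimic replicates 1, 3, 4 and 5 (adjusted p = 0.0154 to 0.133 over the 11 edgeR fits). Got1 was lost without any of control replicates 1, 2, 4 and 6 or mimic replicates 1, 2, 4 and 5 (adjusted p = 0.00464 to 0.118). Both genes were also lost with upper-quartile scaling, with the replicate numbers as a block and from the authors' normalized signal. Slc38a1, another glutamine carrier, had -0.01 ± 0.02 (adjusted p = 0.921, edgeR). Glul, the glutamine synthetase of astrocytes and the most abundant of the list per length, had 0.06 ± 0.03 (adjusted p = 0.336, edgeR).

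Of 12 vesicle membrane proteins 1 fell and none rose by edgeR and by DESeq2, with 3 and 0 at an unadjusted p under 0.05. Sv2b, a vesicle glycoprotein that is common in glutamatergic terminals, averaged 750 ± 16.1 CPM (SD) over the 6 control samples and 685 ± 10.6 CPM (SD) over the 5 mimic samples, and the groups did not overlap. Its log2 fold change was -0.13 ± 0.02 (SE, adjusted p = 0.0016, edgeR), and it stayed called whichever of the 11 samples was left out. Vamp2, the vesicle SNARE and the most abundant gene of the list per length, had 0.03 ± 0.02 (adjusted p = 0.645, edgeR).

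**Figure D5:**
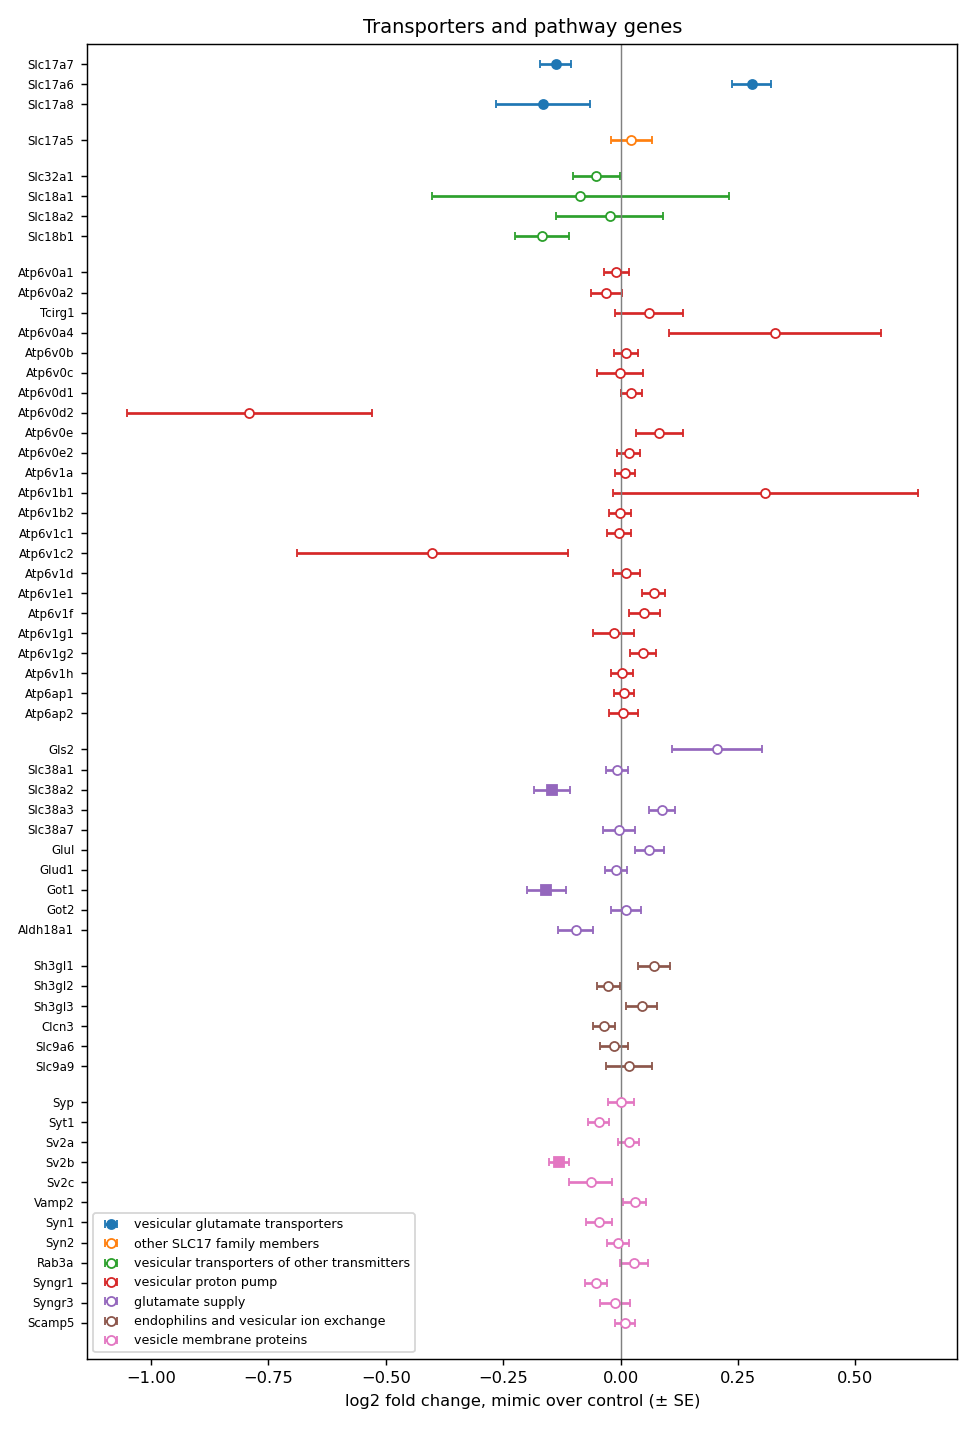
Log2 fold change of mimic over control with its standard error for the 3 vesicular glutamate transporters (filled circles, given as a description with no test) and the tested pathway genes, all but 1 of the 57, coloured by list; squares are pathway genes called by edgeR and open circles those not called. The called genes Slc38a2, Got1 and Sv2b lie at -0.15, -0.16 and -0.13, and Slc17a6 lies at 0.28.

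Marker genes were summed in each sample to place the transporters beside the cell types a hippocampal culture can hold. Markers of glutamatergic neurons summed to 2725 to 2834 CPM in control and 2551 to 2719 CPM in mimic, without overlap, and 2 of 9 were called lower by edgeR (background 1.77%). Most of the difference in the sum lay in 1 gene, Camk2a, with a mean of 1999 CPM in the control and 1876 CPM in the mimic samples. Over the 9 genes the median log2 fold change was -0.017, and 3 of the 9 genes had a positive sign. Camk2a, a kinase of excitatory synapses and the most abundant of them per length, was called with a log2 fold change of -0.09 ± 0.02 (SE, adjusted p = 0.0305, edgeR). The other called gene was Prox1, a transcription factor of dentate granule cells named after its values were seen, with -0.21 ± 0.05 (adjusted p = 0.0168, edgeR). Camk2a was lost without any of control replicates 1, 3, 4 and 5 or mimic replicates 2, 4 and 5 (adjusted p = 0.0147 to 0.122, edgeR) and with upper-quartile scaling (adjusted p = 0.0541), and Prox1 without control replicate 1 or mimic replicate 2 or 4 (adjusted p = 0.00607 to 0.0842). Neurod6, a transcription factor of pyramidal neurons, had -0.04 ± 0.03 (adjusted p = 0.573, edgeR).

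The sums of 3 further marker lists, for cells other than glutamatergic neurons that could carry Slc17a6 or Slc17a8, overlapped between the groups. Cajal-Retzius markers, genes of early-born neurons that express Slc17a6, summed to 199 to 217 CPM in control and 210 to 213 CPM in mimic. Most of this sum lay in Reln, with a mean of 195 CPM in control, so it says little about the other markers. Reln had a log2 fold change of 0.01 ± 0.03 (SE, adjusted p = 0.882, edgeR). Over the 5 tested genes of the list the median was -0.052, with 3 of negative and 2 of positive sign. GABAergic markers summed to 958 to 1043 CPM in control and 962 to 1011 CPM in mimic. Among them Gad1 had -0.02 ± 0.03 (adjusted p = 0.767, edgeR) and Gad2 -0.06 ± 0.03 (adjusted p = 0.336). Monoaminergic and cholinergic markers were near 0, at 1.58 to 2.29 CPM in control and 1.42 to 2.73 CPM in mimic for the sum of 7 genes, with Chat at 0 counts in all samples and Tph2 the most abundant per length at 0.223 CPM per kb in control. None of these 3 lists had a called gene by edgeR or DESeq2, and of their tested genes 3 were lower and 1 higher at an unadjusted p under 0.05.

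Pan-neuronal markers, led per length by the tubulin gene Tubb3, summed to 6406 to 6578 CPM in control and 6324 to 6535 CPM in mimic, and none of 6 was called by edgeR or DESeq2 (4 were lower at an unadjusted p under 0.05). The sum of the astrocyte markers was 4453 to 4834 CPM in control and 4096 to 4339 CPM in mimic without overlap, and 1 of 6 was called lower (background 1.77%). That gene was Slc1a2, the glutamate uptake carrier GLT-1, at -0.19 ± 0.02 (SE, adjusted p = 9.95e-05, edgeR), and most of the difference in the sum lay in it, with a mean of 2398 CPM in the control and 2109 CPM in the mimic samples. The median log2 fold change of the 6 genes was -0.056, and 2 of them had a positive sign. Vascular and fibroblast markers, led by the collagen gene Col1a1, summed to 168 to 248 CPM in control and 258 to 351 CPM in mimic, also without overlap. Of 8 tested, Cdh5 of endothelial cells rose by 0.77 ± 0.15 and Rgs5 of pericytes fell by 0.66 ± 0.13 on the log2 scale (adjusted p = 0.00713 and 0.0227, edgeR), both named after their values were seen. Other genes of these cells did not follow them. Endothelial Pecam1 had 0.053 ± 0.245 (SE, adjusted p = 0.958, edgeR) at only 0.414 CPM in control. Pdgfrb, also of pericytes, had 0.153 ± 0.067 (adjusted p = 0.267, edgeR). Whether either cell type changed in number was not tested. The median log2 fold change of the 8 genes was 0.461. DESeq2 called 1 lower and 3 higher, and at an unadjusted p under 0.05 there were 1 and 6. Rgs5 was lost without control replicate 1 or mimic replicate 2, 4 or 5 (adjusted p up to 0.0758, edgeR). Oligodendrocyte lineage markers, led by Olig2, summed to 47.3 to 54.5 CPM in control and 48.9 to 55.7 CPM in mimic, and microglia markers, led by Aif1, to 13.01 to 13.6 and 12.6 to 13.8 CPM. Neither list had a called gene by edgeR or DESeq2, with 2 lower and 1 higher at an unadjusted p under 0.05. The part of these differences in the summed glutamatergic, astrocyte and vascular or fibroblast markers in the levels of the transporters was not tested.

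Genes with a like profile were sought among the 9672 other genes whose mean reached 10 CPM, by the root mean square difference of log2 CPM over the 11 samples after each gene was centred on its mean. Among the nearest to Slc17a7 were Dgkz, a diacylglycerol kinase, at 0.0257 and Tiam1, an activator of the GTPase Rac, at 0.028, beside a standard deviation of Slc17a7 itself of 0.0976. The nearest to Slc17a6 were Ppic, a cyclophilin, at 0.0613, Chodl, a membrane lectin, at 0.0691 and Chn2, a regulator of Rac, at 0.071, beside 0.162. For Slc17a8, sought among 9673 genes, they were Dkc1, the dyskerin gene, at 0.0854, Zfp383, a zinc finger gene, at 0.0944 and Gabra3, a GABA-A receptor subunit, at 0.0958, beside 0.173. Counting error takes most of the spread of Slc17a8, so the distances of its neighbours cannot be set beside those of the other genes. The log2 fold changes of Dgkz and Tiam1 were both -0.14, as was that of Slc17a7. This follows from the choice of near profiles over the same samples and is no added likeness. These likenesses are descriptions and rest on 11 samples.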

How the data were processed

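Libraries were poly(A)-selected (TruSeq RNA v2) and sequenced as 50-base single-end reads. Per the labels and the study's methods, the authors mapped them with STAR 2.5.2b to mm10 and counted them per gene with featureCounts (Subread 1.5.1). They deposited raw counts per sample. The annotation release, strand and multi-mapping options were not given in the sources used here. A second table deposited by the authors gives normalized signal, the counts divided by 1 factor per sample, for 16921 genes, and served only as an alternative. Total counts were 17287168 to 48091231 per sample.

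Genes that reached 5 counts in 50% or more of the samples were fitted with edgeR 4.0.16 (R 4.3.3; TMM scaling, two-sided quasi-likelihood test, group as the only term, Benjamini-Hochberg adjustment over all 17365 genes, called at an adjusted p under 0.05). On simulated data the fit recovered 86 and 92% of log2 changes of -1 and 1, and 66 and 78% of those of -0.5 and 0.5. It made 13 false calls. Changes as small as those of the called pathway genes were not simulated, so the simulation does not bear on calls or missing calls of that size. The SE of a log2 fold change is its size over the square root of F. CPM used TMM-scaled library sizes. Exon lengths, transcripts and positions came from GENCODE M21 (GRCm38), and microRNA sequences from RefSeq. A list of gene names gave symbols for 48349 of 48709 identifiers. Alternatives were DESeq2 1.42.0, RLE and upper-quartile scaling, count filters of 10 or none, omission of each sample in turn, a replicate block, the normalized table with limma 3.58.1 (log2 of value plus 1) and other length corrections.

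The 3 genes and all lists were chosen with earlier results of these data known. Besides the 3 genes and 14 related genes, the text names in each list the called genes farthest down and up and the gene most abundant per length, markers at 0, and the 3 closest profiles per gene. The 14 included Slc32a1, Slc17a5, Slc17a9, Slc38a1, Slc38a2, Sh3gl1, Sh3gl2, Sh3gl3, Clcn3, Neurod6, Reln, Gad1 and Gad2. A few genes that the rule names are not reported here. No pair of samples in a group agreed within sampling noise (chi-square per degree of freedom 1.23 to 5.58 over 25 pairs).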

Additional observations from a re-analysis of the deposited data

How the results depend on the processing

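The signs of the 3 differences held under all 18 alternatives. The log2 fold change of Slc17a7 was -0.16 to -0.11 when 1 sample was left out and -0.14 to -0.13 under the other settings, that of Slc17a6 0.25 to 0.33 and 0.27 to 0.29, and that of Slc17a8 -0.21 to -0.12 and -0.17 to -0.14. With the replicate numbers as a block (numbers 1 to 5, without control replicate 6) they were -0.14, 0.28 and -0.17. Same-numbered samples did not deviate together (r of -0.02 to 0.02 over 5 pairs, and -0.07 to 0.08 over 25 other pairs), so the numbers were not taken as pairs. Of all genes 495 were called, 328 with the block, 785 with no count filter and 218 to 491 with 1 sample left out, the lowest counts being 218 without control replicate 1, 237 without mimic replicate 2 and 278 without mimic replicate 4. Of the pathway genes 3 were called lower, and 4 with no count filter, which added Atp6v0d2. Only 1 (Sv2b) was called lower with upper-quartile scaling, with the block and from the normalized table, and 1 to 3 with 1 sample left out. With the block Prox1 was not called either (adjusted p = 0.0547, edgeR). Without mimic replicate 3 a further gene, Slc38a3, was called higher, so that the count with 1 sample left out was 0 to 1. The share of Slc17a7 was 96.5% in control and 95.5% in mimic with the length of the longest transcript, and 95.2 to 95.3% and 93.7 to 94.2% with 1 sample left out. The cause of these changes was not tested. Depth limits Slc17a8 most, with as few as 55 counts in a sample.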
